A study of Homo sapiens with 6 samples.

Results

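The E2F and DP transcription factors were followed in the lymphoma line OCI-LY1, an established line of human diffuse large B cell lymphoma. They were taken by gene symbol from a table of RNA sequencing read counts: E2F1 to E2F8 and the dimer partners TFDP1 and TFDP2 gave 10 genes of 23250. In 3 libraries the cells received siRNA against BCL6 together with an introduced BCL6 mutated in its RD2 repression domain (mutant rescue), and in 3 libraries the same siRNA with introduced wild-type BCL6 (wild-type rescue). Both groups thus share the siRNA, no library without a rescue was compared, and the labels name no separate cultures behind the replicates. The p-values therefore cover only the differences among these 3 libraries per group, which can be technical.

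Most E2F proteins bind DNA as dimers with a DP protein and time the entry of cells into S phase. E2F1, E2F2 and E2F3 are the activators, which are held back by the retinoblastoma protein until cyclin-dependent kinases release them. E2F4 and E2F5 are repressors that work with the pocket proteins RBL1 and RBL2, E2F6 represses with Polycomb proteins, and the atypical E2F7 and E2F8 repress without a DP partner or a pocket protein. In germinal centre B cells, which divide fast, BCL6 is known as a transcriptional repressor that keeps the programme of that stage.

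E2F genes are themselves known targets of E2F factors, so the RefSeq windows around their start sites (GRCh38.p14, from 250 bases before to 50 bases after the start) were searched for E2F letters. The 8-letter forms TTTCCCGC, TTTCGCGC, TTTGCCGC and TTTGGCGC and the 7-letter form TTTCGCG were looked for on both strands. The last of these lies inside TTTCGCGC, so the searches can overlap. Windows were used for 8 members, in 11 entries because E2F3 has more than 1 start and TFDP2 several, and none for E2F5 and E2F8. The 4 first windows that held an 8-letter form are printed, which are those of the 3 activators and TFDP1. Capitals mark the 8-letter and 7-letter forms. The windows are chr20:33686336-33686635 (minus strand), chr1:23531184-23531483 (minus strand), chr6:20401629-20401928 (plus strand) and chr13:113584503-113584802 (plus strand).
E2F1: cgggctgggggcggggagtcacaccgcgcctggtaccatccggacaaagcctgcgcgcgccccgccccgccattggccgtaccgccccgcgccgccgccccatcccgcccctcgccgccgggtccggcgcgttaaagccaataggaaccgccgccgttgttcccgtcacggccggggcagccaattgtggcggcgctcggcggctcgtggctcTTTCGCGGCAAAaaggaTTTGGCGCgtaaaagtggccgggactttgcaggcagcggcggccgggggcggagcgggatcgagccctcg
E2F2: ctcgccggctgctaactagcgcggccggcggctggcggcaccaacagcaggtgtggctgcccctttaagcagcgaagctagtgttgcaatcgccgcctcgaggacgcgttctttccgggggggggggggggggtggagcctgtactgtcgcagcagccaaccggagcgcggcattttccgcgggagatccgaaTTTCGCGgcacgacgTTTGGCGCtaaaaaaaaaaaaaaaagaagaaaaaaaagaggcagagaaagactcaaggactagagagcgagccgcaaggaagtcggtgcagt
E2F3: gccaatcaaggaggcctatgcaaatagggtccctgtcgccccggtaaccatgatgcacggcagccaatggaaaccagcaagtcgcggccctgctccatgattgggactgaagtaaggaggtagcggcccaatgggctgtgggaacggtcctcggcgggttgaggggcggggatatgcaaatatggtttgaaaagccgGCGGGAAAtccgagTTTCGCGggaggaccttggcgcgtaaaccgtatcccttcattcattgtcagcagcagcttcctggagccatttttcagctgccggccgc
TFDP1: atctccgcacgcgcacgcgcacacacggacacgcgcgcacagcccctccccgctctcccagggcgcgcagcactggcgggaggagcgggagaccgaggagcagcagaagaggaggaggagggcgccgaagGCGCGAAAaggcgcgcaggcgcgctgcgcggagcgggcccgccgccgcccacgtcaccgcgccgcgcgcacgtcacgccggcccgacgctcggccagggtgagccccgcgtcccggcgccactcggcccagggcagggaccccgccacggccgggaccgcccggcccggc

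In the E2F1 window, TTTCGCG began at position -37 from the start, with TTTGCCGC overlapping it on the other strand at -33 and TTTGGCGC at -20. E2F2 had TTTCGCG at -57 and TTTGGCGC at -42. E2F3 had TTTCCCGC on the other strand at -53 and TTTCGCG at -39. In TFDP1, TTTCGCGC lay on the other strand at -120. An 8-letter form was thus in 4 of 11 member windows (36.4%), against 1164 of all 35116 windows of this length (3.31%), and the 7-letter form was in the same 4 windows, against 1.32% of all windows. The first windows of E2F4, E2F6, E2F7 and TFDP2 and the further windows of E2F3 and TFDP2 had neither. The letters TTCCTAGAA, a form of the BCL6 motif, were in 0 of the 11 windows, against 0.373% of all windows. At so low a share 0 of 11 was likely for any genes, so this count tells nothing about the members. All results of this search are matches of letters only and say nothing of binding.

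The libraries held 26298456 to 26966183 counts in the mutant rescue and 26477404 to 27574867 in the wild-type rescue, and a floor of 3 counts was 0.109 to 0.114 CPM relative to the plain library totals, a limit from counting alone. CPM stands for counts scaled by library size, and all CPM below also carry the TMM factor of their library. Members took 0.234% to 0.239% of counts in mutant rescue libraries and 0.210% to 0.211% in wild-type rescue libraries. BCL6 was present in all libraries, at 529, 511 and 519 CPM in the mutant rescue and 695, 650 and 689 CPM in the wild-type rescue (log2 fold change -0.38, SE 0.032; edgeR, adjusted p = 7.91e-10), and these counts hold the endogenous and the introduced transcript together. All 8 B cell markers were tested, and their summed level was 4030 to 4070 CPM in the mutant and 4640 to 4690 CPM in the wild-type rescue. Summed T cell, myeloid and fibroblast markers stayed under 1 CPM in every library, with CD3E, CD2 and LUM at 0 counts in all. Epithelial markers summed to 3.47 to 4.06 CPM in the mutant and 15.5 to 16.8 CPM in the wild-type rescue, nearly all from EPCAM, and KRT19 was at 0. Whether the lower BCL6 level, the lower B cell marker sum or the lower EPCAM had a part in the differences below was not tested.

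All 10 members passed the filter on low counts. In the mutant rescue 5 were higher (E2F2, E2F3, E2F7, E2F8 and TFDP2), 4 were lower (E2F1, E2F4, E2F5 and TFDP1), and E2F6 did not pass the test. Neither the activators nor the repressors moved one way: the increases were led by a repressor, E2F7 (1.95-fold), and an activator, E2F2 (1.73-fold), and the decreases by the repressor E2F5 (1.41-fold). Of all 12406 tested genes 70.1% were called in this comparison (35.4% higher and 34.8% lower; quasi-likelihood test of edgeR, p under 0.05 after Benjamini-Hochberg adjustment over all tested genes), so 9 of 10 called members are read against a background in which most genes were called. The groups did not overlap for the same 9 members, against 72.4% of all tested genes. Against a minimum change of 1.2-fold 4 members passed, E2F2, E2F5, E2F7 and E2F8, against 37.0% of all tested genes. The median log2 fold change of the members was 0.16, against 0.01 over all tested genes. Log2 fold changes are mutant minus wild-type rescue. In bulk RNA fewer cells in a phase of the cycle that uses a gene and less of its RNA per cell cannot be told apart.

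**Figure D1:**
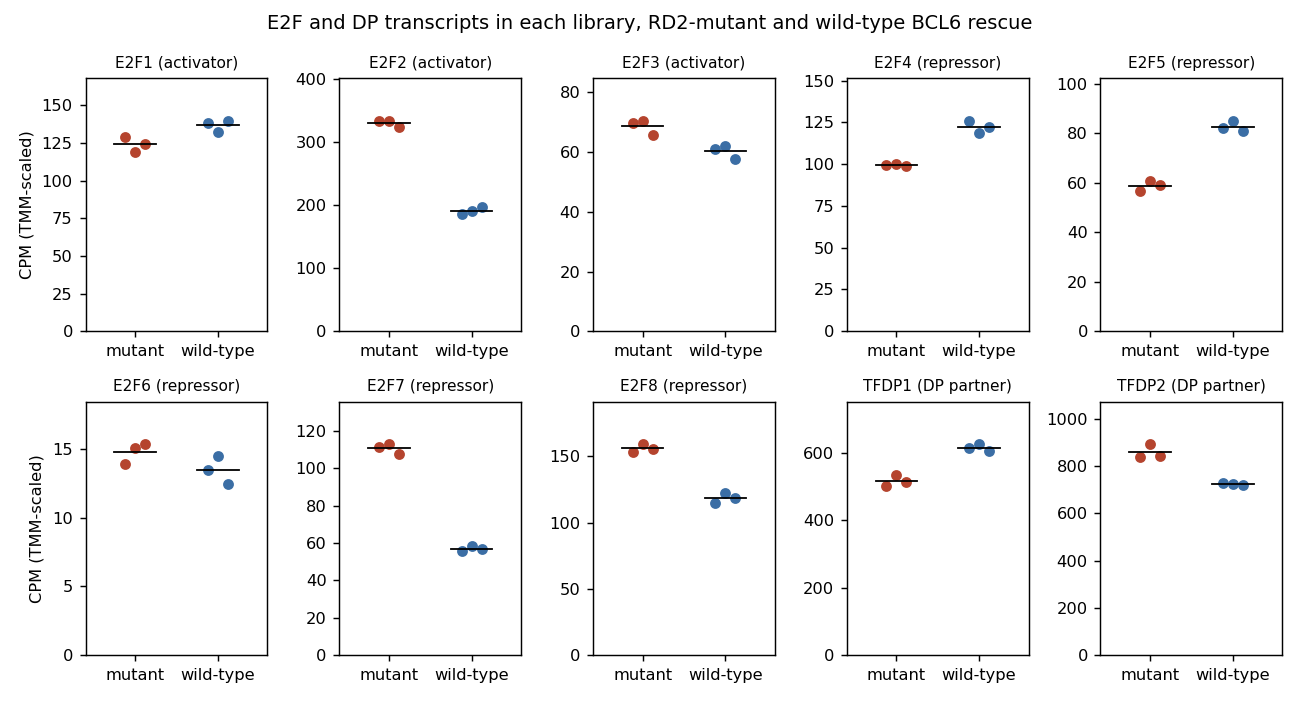
Each panel plots TMM-scaled CPM (vertical axis, from 0) of 1 member in the 3 mutant rescue libraries (red) and the 3 wild-type rescue libraries (blue), with a line at each group's mean. By fold change E2F7 and E2F2 stand farthest above their wild-type rescue values and E2F5 farthest below, and the groups overlap only for E2F6.

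The activators split. E2F1, which drives S phase genes and can also promote apoptosis, had 129, 119 and 124 CPM in the mutant rescue and 139, 133 and 140 CPM in the wild-type rescue. All mutant rescue values lay below all wild-type rescue values by a small margin, and E2F1 fell 1.10-fold (log2 fold change -0.14, SE 0.037; edgeR, adjusted p = 0.00181). E2F2, an activator known from mouse for its roles in T cells and red cell precursors, had 334, 333 and 324 CPM in the mutant rescue and 185, 191 and 197 CPM in the wild-type rescue. The gap between the groups was many times the spread within either, and E2F2 rose 1.73-fold (log2 fold change 0.79, SE 0.033; edgeR, adjusted p = 1.01e-14). E2F3, which is made in long and short forms from separate promoters, had 69.8, 70.6 and 65.7 CPM in the mutant rescue and 60.9, 61.9 and 57.8 CPM in the wild-type rescue. It rose 1.14-fold (log2 fold change 0.19, SE 0.043; edgeR, adjusted p = 5.47e-04), and the gene-level counts do not tell its forms apart. In size of change E2F2 exceeded 85.7% of all tested genes, E2F3 35.6% and E2F1 27.3%.

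The repressors that use pocket proteins were both lower. E2F4, the main E2F of resting cells, had 99.7, 100.3 and 98.7 CPM in the mutant rescue and 126, 119 and 122 CPM in the wild-type rescue. Its mutant rescue libraries were nearly alike, all were below the wild-type rescue, and E2F4 fell 1.23-fold (log2 fold change -0.30, SE 0.035; edgeR, adjusted p = 2.13e-07). E2F5, its close relative, had 56.6, 60.6 and 58.9 CPM in the mutant rescue and 81.9, 85.1 and 80.9 CPM in the wild-type rescue. It fell 1.41-fold without overlap (log2 fold change -0.49, SE 0.041; edgeR, adjusted p = 8.91e-10). The gene C8orf59 overlaps E2F5 on the opposite strand in GENCODE v29, and since the strand setting of the counts is not given, reads of the pair cannot be told apart with certainty. C8orf59 itself went the other way, at 57.5 ± 1.77 CPM in the mutant and 43.5 ± 1.02 CPM in the wild-type rescue (SD, n = 3 each; edgeR, adjusted p = 5.71e-08).

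E2F6, the repressor that recruits Polycomb proteins, was the least abundant member, at 14.0, 15.1 and 15.4 CPM in the mutant rescue and 13.5, 14.5 and 12.5 CPM in the wild-type rescue. The groups overlapped and the test was not passed (log2 fold change 0.13, SE 0.075; edgeR, adjusted p = 0.119). Without wild-type rescue replicate 2 the adjusted p was 0.0445 with a log2 fold change of 0.19 (edgeR), and over the other alternatives E2F6 did not pass. RefSeq lists 4 pseudogenes of E2F6, 3 of TFDP1, 2 of E2F3 and 1 of E2F4. None has a row in the table, and reads shared with them could not be assigned.

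The atypical repressors were both higher. E2F7, which shuts down E2F target genes late in S phase and in G2, had 111, 113 and 108 CPM in the mutant rescue and 55.8, 58.3 and 56.5 CPM in the wild-type rescue. The groups were widely apart, and E2F7 rose 1.95-fold (log2 fold change 0.96, SE 0.038; edgeR, adjusted p = 5.49e-15), a change larger in size than that of 89.8% of all tested genes. E2F8, which pairs with E2F7, had 153, 159 and 156 CPM in the mutant rescue and 115, 122 and 118 CPM in the wild-type rescue. It rose 1.32-fold (log2 fold change 0.40, SE 0.035; edgeR, adjusted p = 1.84e-09).

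The DP partners moved in opposite directions. TFDP1, the common partner of E2F1 to E2F6, had 502, 536 and 513 CPM in the mutant rescue and 613, 626 and 606 CPM in the wild-type rescue. It fell 1.19-fold (log2 fold change -0.25, SE 0.031; edgeR, adjusted p = 4.06e-07). TFDP2, the alternative partner, had 838, 893 and 843 CPM in the mutant rescue and 730, 725 and 722 CPM in the wild-type rescue. It rose 1.18-fold (log2 fold change 0.24, SE 0.031; edgeR, adjusted p = 4.80e-07). The third DP gene, TFDP3, is not among the members and was too low to be tested, with 5, 6 and 8 counts in the mutant rescue and 7, 10 and 7 in the wild-type rescue.

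**Figure D2:**
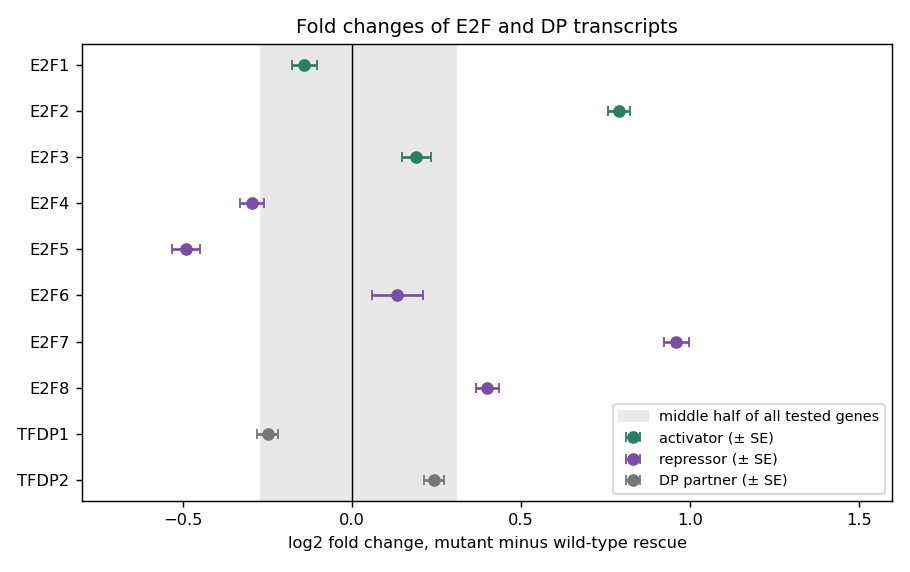
The log2 fold change (mutant minus wild-type rescue, horizontal axis) of each member is drawn with its standard error and coloured by class, over a grey band that holds the middle 50% of all tested genes (-0.27 to 0.31). Activators and repressors lie on both sides of 0, and only E2F2, E2F4, E2F5, E2F7 and E2F8 lie outside the band.

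Ratios of 2 genes within a library do not depend on scaling or gene length when the groups are compared. E2F2 counts per E2F1 count were 2.59, 2.79 and 2.61 in the mutant rescue and 1.34, 1.44 and 1.41 in the wild-type rescue, so the balance among activators differed without overlap. E2F7 counts per E2F8 count were 0.709 ± 0.0166 in the mutant and 0.481 ± 0.00517 in the wild-type rescue, and E2F5 counts per E2F4 count were 0.590 ± 0.0190 in the mutant and 0.676 ± 0.0362 in the wild-type rescue (SD, n = 3 each). TFDP2 per TFDP1 was 1.66 ± 0.0155 in the mutant and 1.18 ± 0.0187 in the wild-type rescue. Across classes, E2F7 per E2F4 was 1.12, 1.13 and 1.09 in the mutant rescue and 0.443, 0.491 and 0.462 in the wild-type rescue. E2F7 per E2F1 was 0.892 ± 0.0469 in the mutant and 0.415 ± 0.0208 in the wild-type rescue. None of these 6 ratios overlapped between the groups. Each had an exact two-sided permutation p of 0.1, before and after Benjamini-Hochberg adjustment, the smallest that 3 libraries against 3 allow. E2F2 per E2F1, TFDP2 per TFDP1, E2F7 per E2F4 and E2F7 per E2F1 set a member that rose against one that fell. As neither member overlapped between the groups, such a ratio could not overlap either. The ratios thus describe the members' changes again and give them no further support.

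To set the levels of different genes side by side, CPM were divided by the length of each gene's longest coding GENCODE v29 transcript. On this scale TFDP1 was the most abundant member, at 195 ± 6.49 CPM per kilobase in the mutant and 232 ± 3.74 in the wild-type rescue, and TFDP2 followed at 87.1 ± 3.07 in the mutant and 73.6 ± 0.392 in the wild-type rescue (SD, n = 3 each). Among the E2Fs, E2F2 led in the mutant rescue at 63.6 ± 0.999 CPM per kilobase, against 36.8 ± 1.15 in the wild-type rescue, where E2F4 led at 58.4 ± 1.77 ahead of E2F1 at 54.8 ± 1.55. In the mutant rescue E2F1, at 49.6 ± 1.95, and E2F4, at 47.5 ± 0.378, were close to each other. E2F6 was lowest in both, at 4.29 ± 0.216 CPM per kilobase in the mutant and 3.91 ± 0.301 in the wild-type rescue. With the median coding length instead, TFDP2 came before TFDP1 and E2F4 led the E2Fs in both rescues, so the order among genes depends on the length used.

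Summed per kilobase, the activators came to 131, 127 and 126 CPM per kilobase in the mutant rescue and 104, 103 and 106 in the wild-type rescue. The repressors E2F4 to E2F8 came to 145, 149 and 146 in the mutant rescue and 150, 151 and 148 in the wild-type rescue, so their sum was close while its parts moved apart. E2F4 and E2F5 gave 28.7% ± 0.422 of the summed E2F level in the mutant and 40.2% ± 0.518 in the wild-type rescue (SD, n = 3 each). E2F7 and E2F8 gave 23.2% ± 0.316 in the mutant and 17.2% ± 0.507 in the wild-type rescue. The activators gave 46.6% ± 0.796 in the mutant and 41.1% ± 0.592 in the wild-type rescue. Among them E2F2 was at 63.6 CPM per kilobase in the mutant and 36.8 in the wild-type rescue. E2F1 went the other way, at 49.6 in the mutant and 54.8 in the wild-type rescue. E2F3 was at 14.5 in the mutant and 12.7 in the wild-type rescue. E2F6 gave 1.56% ± 0.0862 in the mutant and 1.54% ± 0.121 in the wild-type rescue. With median lengths the activators gave 36.7% in the mutant and 32.0% in the wild-type rescue, E2F4 and E2F5 35.0% in the mutant and 48.4% in the wild-type rescue, and E2F7 and E2F8 27.0% in the mutant and 18.3% in the wild-type rescue. These sums were not tested.

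**Figure D3:**
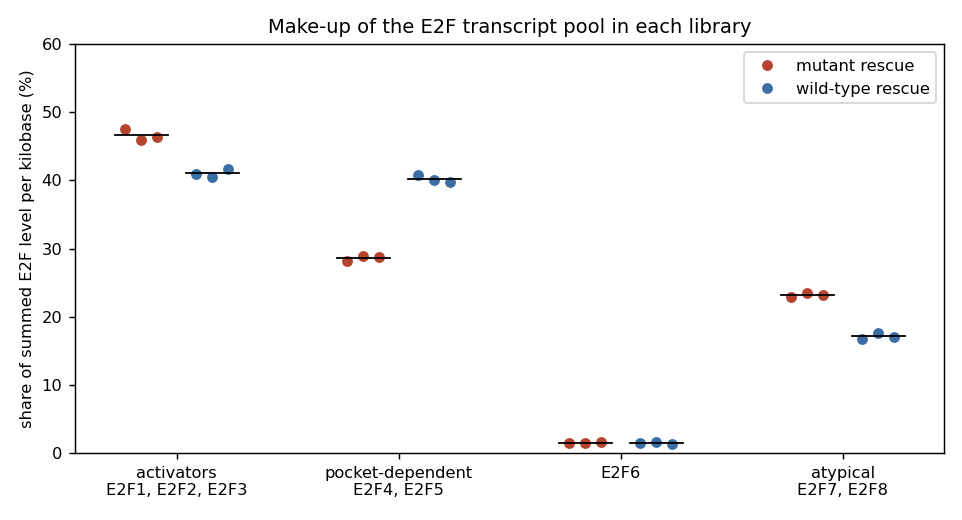
The share of the summed E2F level per kilobase (vertical axis, percent, longest coding transcript) held by each class is plotted for each mutant rescue (red) and wild-type rescue (blue) library, with lines at the group means. The pocket-dependent repressors hold less, and the activators and atypical repressors more, in the mutant rescue.

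For the 2 members with the largest change in their class, the tested genes with the most similar pattern over the 6 libraries were found by the root mean square difference of log2 CPM after each gene's mean was removed. Nearest to E2F2 were SRGAP2 (0.018), LOC100505812 (0.023) and RIMS3 (0.023), where SRGAP2 has near-identical copies that can share its reads. Nearest to E2F7 were EBF1 (0.020), ITGA4 (0.028) and ICA1L (0.028). With 2 groups, this likeness mainly reflects a similar fold change.

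Among the pocket proteins that hold E2Fs in check, RB1 rose and RBL1 fell. RB1, which binds the activators, had 21.6 ± 0.490 CPM in the mutant and 14.6 ± 0.835 CPM in the wild-type rescue (SD, n = 3 each; log2 fold change 0.56, SE 0.064; edgeR, adjusted p = 1.16e-07). RBL1 (p107), itself an E2F target, had 64.4 ± 2.93 CPM in the mutant and 83.7 ± 1.04 CPM in the wild-type rescue (log2 fold change -0.38, SE 0.041; edgeR, adjusted p = 4.96e-08). RBL2 (p130), the partner of E2F4 in resting cells, did not pass the test, at 84.9 ± 2.99 CPM in the mutant and 81.8 ± 0.693 CPM in the wild-type rescue (edgeR, adjusted p = 0.217). Of 7 genes of the MuvB core and its partners, which with E2F4 form the DREAM repressor and with MYBL2 and FOXM1 drive mitotic genes, 6 rose, 0 fell and 1, RBBP4 (log2 fold change 0.04), did not pass (median log2 fold change 0.41), where 35.4% of all tested genes rose. FOXM1 rose most (0.84), then LIN9 (0.42), LIN54 (0.42), MYBL2 (0.40), LIN52 (0.34) and LIN37 (0.27), on the log2 scale. LIN37 was not called by DESeq2 (adjusted p = 0.0661), and RBBP4 passed with scaling by library size only (edgeR, adjusted p = 0.0329).

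Upstream of the pocket proteins, all 6 tested CDK inhibitor genes rose (median log2 fold change 0.91), where 35.4% of all tested genes rose, and CDKN1C was at 0 counts in every library. CDKN1B (p27) had 255 ± 7.24 CPM in the mutant and 90.8 ± 2.21 CPM in the wild-type rescue, the largest change on the list (log2 1.49). CDKN2D (1.14), CDKN2B (1.01), CDKN1A (0.81), CDKN2C (0.52) and CDKN2A (0.19) followed on the log2 scale, with CDKN2B low at 1.89 ± 0.177 CPM in the mutant and 0.940 ± 0.0780 CPM in the wild-type rescue. The list of G1 cyclins and CDKs also holds CCNA2, which is not a G1 cyclin. Of its 8 tested genes 3 rose, CCNA2 among them, 2 fell and 3 were not called (median -0.04). Thus 62.5% were called, against 70.1% of all tested genes. CDK6 fell 1.61-fold to 75.3 ± 3.81 CPM in the mutant rescue, against 121 ± 4.71 CPM in the wild-type rescue, and CDK4 fell 1.19-fold. Cyclin genes CCNA2 (log2 0.46) and CCND3 (0.30) rose. CDK2 (0.09) passed, but not with DESeq2 (adjusted p = 0.0608), nor without mutant rescue replicate 3 (edgeR, adjusted p = 0.0549) or wild-type rescue replicate 1 (edgeR, adjusted p = 0.0646). CCNE1 and CCNE2, the cyclins induced by E2F, did not pass, with CCNE2 at 160.2 ± 5.81 CPM in the mutant and 162 ± 6.63 CPM in the wild-type rescue. CCND1 had 12, 5 and 8 counts in the mutant rescue and 17, 12 and 13 in the wild-type rescue and did not pass (edgeR, adjusted p = 0.0759), though it did without mutant rescue replicate 1 (log2 -1.08; edgeR, adjusted p = 0.0284). CCND2 had 1, 2 and 1 counts in the mutant rescue and 1, 1 and 11 in the wild-type rescue and was not tested.

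Genes for turnover of E2F pathway proteins included CCNF, the cyclin F subunit that marks activator E2Fs for degradation, which rose 1.36-fold to 136 ± 2.35 CPM in the mutant rescue, against 99.9 ± 2.81 CPM in the wild-type rescue. FZR1, an activator of the anaphase promoting complex, and FBXO5, its inhibitor, rose 1.30-fold and 1.29-fold. SKP2, which targets CDKN1B protein and E2F1, fell 1.17-fold.

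Of 67 known E2F targets of the G1/S transition, 13 rose, 41 fell and 13 were not called, with a median log2 fold change of -0.13, against 35.4% higher, 34.8% lower and a median of 0.01 among all tested genes. Among those that fell, the smallest p were those of the replicative helicase genes MCM4 (1.65-fold lower), MCM6 (1.67-fold) and MCM5 (1.52-fold). Higher were MYBL2 (1.32-fold), the thymidylate synthase gene TYMS (1.47-fold) and the ribonucleotide reductase gene RRM2 (1.27-fold). RBL1, CCNE1, CCNE2 and MYBL2 stand on this list and on a list above. CCNA2, counted above as higher on the list of G1 cyclins and CDKs though not a G1 cyclin, is counted again on the next list. The list of 25 genes for G2 and mitosis had 20 higher, 1 lower and 4 not passed (median 0.33), led by CENPA (2.12-fold), BUB1 (2.02-fold) and KIF20A (1.66-fold), with the kinase gene TTK 1.12-fold lower. E2F levels change through the cell cycle, and the part of a shift in cycle phase in the members' differences was not tested.

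Of 12 genes for partners of E2F6 in its Polycomb complex, 5 rose and 7 fell (median -0.09), where 35.4% of all tested genes rose and 34.8% fell. Against a minimum change of 1.2-fold 1 was higher and 2 were lower, where 37.0% of all tested genes passed in either direction. Those with the smallest p were RYBP (log2 0.49), PCGF6 (0.26) and RNF2 (0.20) among the higher and HDAC1 (-0.37), RING1 (-0.38) and L3MBTL2 (-0.18) among the lower. Of 8 germ line genes known from mouse cells to be silenced by E2F6 or its complex, 2 passed the filter. STAG3, a meiotic cohesin subunit with near-identical copies that can share reads, rose to 4.69 ± 0.392 CPM in the mutant rescue, against 2.36 ± 0.169 CPM in the wild-type rescue (log2 0.99; edgeR, adjusted p = 9.66e-07), and SMC1B (log2 -0.18) did not pass. Of 11 apoptosis genes known as E2F1 targets 6 rose, 3 fell and 2 did not pass (median 0.12), so 81.8% were called, against 70.1% of all tested genes. Against a minimum change of 1.2-fold 3 of them were higher and 0 lower, where 37.0% of all tested genes passed in either direction. HRK, a BH3-only gene, rose 1.98-fold and PMAIP1 1.32-fold, while APAF1 fell 1.14-fold, CASP8 1.10-fold and CASP9 1.17-fold. CASP8 was not called without mutant rescue replicate 1 (edgeR, adjusted p = 0.0531), and CASP9 was not called by DESeq2 (adjusted p = 0.0515), without mutant rescue replicate 2 (edgeR, adjusted p = 0.0562) or without wild-type rescue replicate 3 (edgeR, adjusted p = 0.0789).

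**Figure D4:**
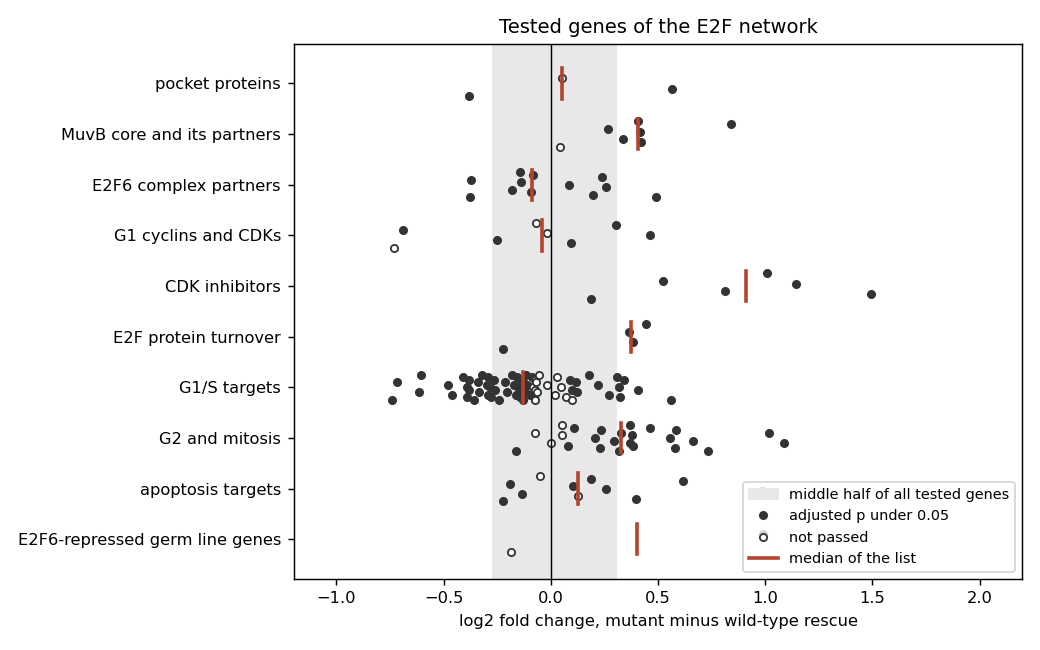
Each point is a tested gene of 1 list, placed by its log2 fold change (mutant minus wild-type rescue, horizontal axis). Filled points passed the test, open points did not, red lines are list medians, and the grey band holds the middle 50% of all tested genes. Of the lists drawn here, which leave out the cell type markers, the CDK inhibitors have the highest median (0.91) and the G1/S targets the lowest (-0.13).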

How the data were processed

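RNA sequencing covered 6 libraries, 3 per rescue. Per the labels' protocols, Trizol was used for RNA and the TruSeq RNA guide for libraries. The submitters' processing notes name build hg19 and the tools STAR, CASAVA 1.8.2 and edgeR. For read counter, annotation and strand setting nothing is given in the sources used here. The deposited values are the authors' unnormalized read counts by gene symbol, with 1 column for each library.

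Counts were tested in R 4.3.3 with edgeR 4.0.16. The filterByExpr defaults kept 12406 of 23250 genes, and 5824 genes were at 0 throughout. TMM factors were applied to the full library sizes. A robust quasi-likelihood fit and glmQLFTest compared the rescues in 1 model without covariates, with Benjamini-Hochberg adjustment over all tested genes. CPM are scaled by TMM. Standard errors were derived from the log2 fold change and its F statistic. The test was first tried on simulated counts in which 200 genes were changed. Far more genes were called in these data, so that trial does not cover their setting. Replicates differed by more than counting noise (chi-square per degree of freedom 1.60 to 5.47), so none was merged. In the mutant rescue the value was 5.47 for replicates 1 and 2, 4.36 for 2 and 3, and 1.75 for 1 and 3. Mutant rescue replicate 2 thus stood apart most. In the wild-type rescue it was 3.01 for 1 and 2, 1.91 for 2 and 3, and 1.60 for 1 and 3. Alternatives were other scalings, DESeq2 1.42.0, limma-voom (limma 3.58.1), the likelihood ratio test, glmTreat against 1.2-fold, other filters, a replicate block and leaving out each library.

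Named were all members, BCL6, all genes of 5 short lists, and from the longer lists the 3 higher and 3 lower called genes with the smallest p. One gene taken by the rule is not reported here. TFDP3 and C8orf59 were added outside this rule after their values were seen. SMC1B, which did not pass, and single cell type markers were also named outside it. The genes nearest to E2F2 and E2F7 had their own rule, given above. Members and lists were chosen with earlier results of these data known. Windows came from RefSeq (GRCh38.p14) and lengths from GENCODE v29. Overlapping genes were found by GENCODE v29 gene coordinates. The reads were counted on hg19, so neither these coordinates nor the windows are on the build of the counts.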

Additional observations from a re-analysis of the deposited data

How the results depend on the processing

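Over 16 alternatives no member changed direction. E2F2, E2F5, E2F7 and E2F8 passed the test under each, with log2 fold changes of 0.77 to 0.82, -0.52 to -0.47, 0.94 to 0.99 and 0.38 to 0.43. E2F1, E2F3, E2F4, TFDP1 and TFDP2 passed under all but glmTreat against 1.2-fold. That test asks for a larger change by construction and left 3 members higher and 1 lower, 4 and 14 G1/S targets higher and lower, 0 mitotic genes lower, 1 and 2 E2F6 partners, 3 and 0 apoptosis genes and 1 and 1 G1 cyclin and CDK genes higher and lower, 0 turnover genes lower, and 2383 higher and 2202 lower genes in all. Named genes outside the members that it no longer called were LIN37, LIN52, CCND3, CDK2, CDK4, CDKN2A, SKP2, PCGF6, RNF2, L3MBTL2, TTK, APAF1, CASP8 and CASP9. Leaving out each library in turn gave 5 to 6 members higher and 4 lower, the sixth being E2F6, and 1 to 2 mitotic genes lower (2 without mutant rescue replicate 1). CCNE2 changed sign around 0, at 0.00963 with library size only, 0.00049 with at least 1 CPM in every library, and between -0.05024 and 0.01106 when each library was left out in turn, and passed under none of these. The cause was not tested.

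Titles number the replicates 1 to 3 in both groups, and no label says that the numbers mark pairs. Deviations of same-numbered libraries correlated over genes at 0.20, 0.24 and -0.07, and those of differently numbered libraries at -0.25 to 0.11. These values do not settle whether libraries were paired, and the main fit took no pairs. With the replicate block 5 members were higher and 4 lower, 4680 genes were higher and 4605 lower in all, 14 and 44 G1/S targets and 20 and 1 mitotic genes were higher and lower, and no named gene changed its call. TFDP3 and CCND2 were too low to be tested, and CCND1 was tested on 5 to 17 counts per library.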
